A study of Mus musculus with 28 samples.

Results

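The genes described here encode the proteins of the cytosolic ribosome, measured by RNA-seq in hippocampal microglia of 28 mice. Members were the rows of the deposited count table whose symbol has the standard form of a ribosomal protein gene (Rpl or Rps with a number and at most 1 of the letters a, x, y or l, or Rplp0, Rplp1, Rplp2 or Rpsa) and whose mean level over the 28 libraries was at least 1 CPM (the counts of a gene scaled to a common library total). Of 48587 genes, 82 matched the name form and 76 reached the level, 44 of the large and 32 of the small subunit. The members just inside the level were *Rpl36* at 1.10 and *Rps12* at 1.11 CPM, and those just outside were *Rpl39l* at 0.907 and *Rpl24* at 0.739 CPM. The other 4 that fell under it were *Rpl23a* at 0.248, *Rpl3l* at 0.023, *Rpl6l* at 0.020 and *Rpl10l* at 0.005 CPM. All 76 members also passed the filter on low counts and were tested.

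All mice were males of 16 weeks on a C57BL/6J background. 5xFAD mice were heterozygous for human APP and PS1 transgenes with familial Alzheimer's disease mutations under the neuronal Thy-1 promoter, which is not a promoter of microglia, and WT mice were littermates without them. There were 5 WT and 3 5xFAD mice kept specific pathogen free (SPF), 4 WT and 5 5xFAD mice kept germ-free (GF), and 5 WT and 6 5xFAD mice of SPF housing given antibiotics (ABX: cefoxitin, gentamicin, metronidazole and vancomycin) in the drinking water for 8 weeks. Microglia were sorted as CD11b+CD45lo cells, with cells stained for Ly6C or Ly6G, among other markers, left out, a gate meant to remove monocytes and neutrophils. Each library came from 1 mouse. The GF mice came from another facility than the SPF and ABX mice, and what GF housing adds cannot be told apart from what the facility adds. For mouse FAD_GF_201 the title and the genotype say 5xFAD and the description says WT, and it was counted as 5xFAD here.

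A cytosolic ribosome joins a small subunit, which binds the mRNA and reads its codons, to a large subunit, which forms the peptide bonds. Each subunit holds 1 copy of most of its proteins, and cells keep the supply of the different proteins closely matched. The mRNAs of nearly all of these proteins begin with a C and a run of pyrimidines (the 5′ terminal oligopyrimidine or TOP motif), through which the kinase mTORC1 and the RNA-binding protein Larp1 regulate them. Microglia, the macrophages of the brain, enlarge and change their protein output when they meet amyloid plaques.

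Promoter windows of 60 bases are shown first, since the tract at the start of transcription is the sequence feature that defines the class. RefSeq promoters of build GRCm38.p6 were found for 56 of the 76 members. A tract was counted where a C within 5 bases of the annotated start was followed by at least 5 bases that were C or T. It was found in 25 of these 56 members (44.6%), 14 of 33 of the large and 11 of 23 of the small subunit, and in 11.95% of all 27025 genes of the promoter table. The windows run from 40 bases before the start to 20 bases from it, on the strand of the gene, and capitals mark the tract. The count depends on where the start is annotated, and a tract further away is not counted. The first 5 are members that hold it. The last 2, *Rpl4* and *Rplp0*, are 2 of the members with the most reads and hold none within that range. In *Rpl4* a run of C and T lies upstream of the range.
*Rplp2*, chr7:141447611-141447670, plus strand: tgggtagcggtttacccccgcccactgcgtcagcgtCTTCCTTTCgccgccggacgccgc
*Rpl14*, chr9:120571477-120571536, plus strand: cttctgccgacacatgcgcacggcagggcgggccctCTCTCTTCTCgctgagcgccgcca
*Rpl38*, chr11:114668540-114668599, plus strand: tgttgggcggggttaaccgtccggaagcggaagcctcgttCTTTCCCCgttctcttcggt
*Rps6*, chr4:86857348-86857407, minus strand: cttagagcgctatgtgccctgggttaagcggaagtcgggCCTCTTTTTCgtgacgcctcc
*Rps9*, chr7:3704001-3704060, plus strand: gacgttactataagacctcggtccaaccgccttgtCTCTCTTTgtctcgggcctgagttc
*Rpl4*, chr9:64173347-64173406, plus strand: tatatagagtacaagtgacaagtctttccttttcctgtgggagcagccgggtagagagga
*Rplp0*, chr5:115559427-115559486, plus strand: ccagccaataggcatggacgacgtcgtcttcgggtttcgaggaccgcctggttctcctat

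Over the whole promoter of 300 bases and both strands, the ETS-type motif CCGGAAG was found in 24 of the 56 members (42.9%) and in 9.93% of all genes. TCTCGCGA, a motif of ubiquitously used promoters, was found in 10 members (17.9%) and in 1.13% of all genes. AAGATGG, the YY1-type motif, was found in 9 members (16.1%) against 7.28%, and TATAAA in 6 members (10.7%) against 15.7%. A match is a description of the letters in the window and no match says nothing of the factor.

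Together the 76 members held from 0.125% to 0.308% of the counted reads of a library. The mean level ranged from 1.10 to 220 CPM in the large and from 1.11 to 173 CPM in the small subunit, and 17 large and 13 small subunit members lay under 10 CPM. Ribosomal protein genes have many processed pseudogenes, copies without introns elsewhere in the genome. Of the 50-base stretches of a member's transcript, the length of a read, a median of 45.5% were found in no other annotated gene over the 75 members with a coding transcript, from 1.35% in *Rps27* to 100%. The 31 members with at least 50% of such stretches had a median level of 24.9 CPM, the 38 members with 10 to under 50% had 6.52 CPM and the 6 members under 10% had 5.58 CPM. Across these 75 genes, all read from the same libraries, Spearman's rho between the share and the level was 0.489. Reads that match several places and their part in these levels were not tested.

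**Figure D1:**
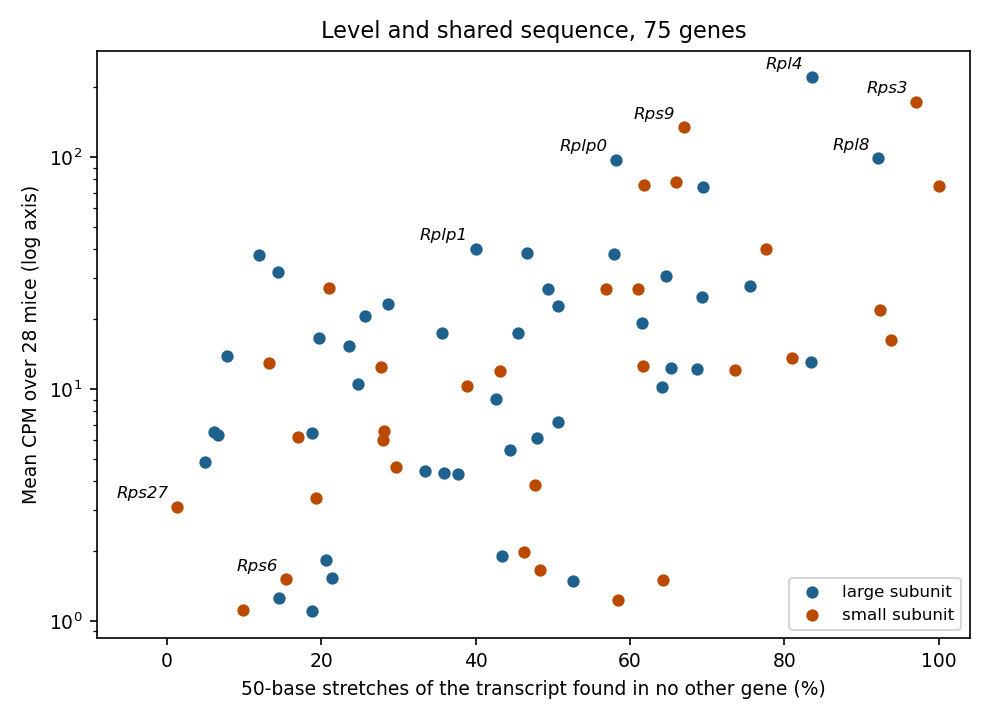
Each point is 1 of 75 ribosomal protein genes (blue, large subunit, orange, small subunit). The horizontal axis gives the percent of the 50-base stretches of its transcript that occur in no other annotated gene and the vertical axis, on a log scale, its mean CPM over 28 mice. The genes with the most reads, *Rpl4*, *Rps3* and *Rps9*, lie in the right part, and *Rps27*, at 1.35%, lies at 3.10 CPM.

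Per kilobase of gene length, the highest members of the large subunit were *Rpl4*, a core protein of the exit tunnel, at 155 CPM per kilobase, *Rpl8*, which lies next to the catalytic centre, at 115 and *Rplp1*, an acidic protein of the stalk that recruits elongation factors, at 81.3. In the small subunit *Rps14* at 54.5 and *Rps9* at 53.4 were among the 3 highest. The lowest were *Rpl36a* at 0.758, *Rpl28* at 0.810 and *Rpl31* at 1.14 in the large, and *Rps6*, the target of S6 kinase, at 0.954, *Rps16* at 0.968 and *Rpsa*, also known as a laminin receptor, at 1.07 in the small subunit. *Rps4l*, an autosomal copy that GENCODE M21 lists as a transcribed processed pseudogene, lay at 30.2 and *Rps4x*, the X-linked gene of the protein, at 7.61 on the same scale. *Rps27l*, a p53-responsive paralogue of *Rps27*, lay at 49.3 and *Rps27* at 2.98, and only 1.35% of the stretches of *Rps27* but 77.6% of those of *Rps27l* were found in no other gene.

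Both subunits were highest in GF 5xFAD mice. In these bulk samples, a change in the number of cells of a type and a change in RNA per cell cannot be told apart. The mean log2 CPM over the 44 large subunit members was 3.33 ± 0.12 (SD, n = 5) in SPF WT, 3.35 ± 0.21 (n = 4) in GF WT and 3.35 ± 0.048 (n = 5) in ABX WT mice. In 5xFAD mice it was 3.63 ± 0.17 (n = 3) under SPF housing, 4.11 ± 0.21 (n = 5) under GF housing and 3.62 ± 0.29 (n = 6) after ABX. Over the 32 small subunit members it was 3.15 ± 0.13, 3.15 ± 0.26 and 3.27 ± 0.13 in SPF, GF and ABX WT mice and 3.47 ± 0.22, 3.91 ± 0.23 and 3.46 ± 0.28 in SPF, GF and ABX 5xFAD mice. The members' reads were 0.152% ± 0.014, 0.160% ± 0.023 and 0.161% ± 0.010 of the counted reads in SPF, GF and ABX WT mice and 0.210% ± 0.032, 0.275% ± 0.033 and 0.204% ± 0.042 in SPF, GF and ABX 5xFAD mice.

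For the large subunit, the 5 GF 5xFAD mice lay at 3.76, 4.14, 4.15, 4.21 and 4.30, and all 5 lay above the highest of the 14 WT mice, which was at 3.50. The 3 SPF 5xFAD mice lay at 3.52, 3.54 and 3.83 and also above every WT mouse. The 6 ABX 5xFAD mice ranged from 3.22 over a median of 3.65 to 3.93 and overlapped the WT mice through FAD_ABX_1460, the lowest, and FAD_ABX_1151. Mouse FAD_GF_201 was the lowest of the GF 5xFAD mice and lay within the range of the SPF 5xFAD mice. For the small subunit the GF 5xFAD mice lay at 3.54, 3.89, 3.93, 3.99 and 4.17, again above all WT mice, the highest of which was at 3.39, while the SPF 5xFAD mice at 3.28, 3.42 and 3.72 and the ABX 5xFAD mice from 3.07 to 3.69 overlapped them. The order of the group means of the large subunit was GF 5xFAD, SPF 5xFAD, ABX 5xFAD and then the WT groups, and the SPF and ABX 5xFAD means, as well as the 3 WT means, differed by less than the spread between mice.

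**Figure D2:**
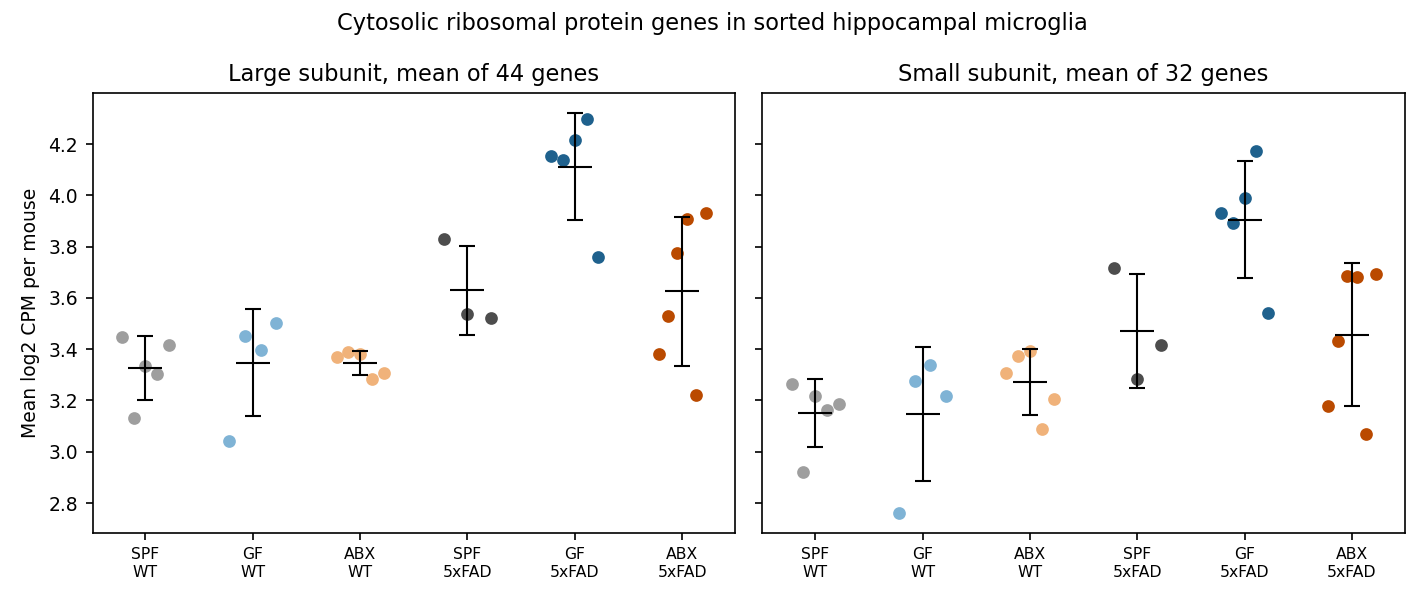
Each point is 1 mouse, and the vertical axis gives the mean log2 CPM of its 44 large (left) or 32 small (right) subunit genes. Horizontal marks and bars are the mean and SD of each of the 6 groups. The mean of GF 5xFAD mice is the highest in both panels, with its mice from 3.76 to 4.30 in the large and from 3.54 to 4.17 in the small subunit, while WT mice lie between 3.04 and 3.50 in the large and between 2.76 and 3.39 in the small subunit.

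Over all 6 groups the F test of edgeR called 53 of the 76 members (69.7%, 30 large and 23 small), where it called 33.2% of the 15298 genes tested. Among the smallest p-values were those of *Rpl4* (adjusted p = 3.7e-09), *Rpl32* (5.8e-09) and *Rplp0* (3.2e-08) in the large and *Rps19* (6.7e-09) and *Rps14* (4.4e-07) in the small subunit.

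What the transgenes change in mice without microbiota is asked by GF 5xFAD against GF WT mice, and of the 9 comparisons of 2 groups this had the most calls. Of the members, 48 were higher in 5xFAD mice (27 large and 21 small, 63.2%) and 0 were lower, where 9.43% of all genes tested were higher and 6.2% lower. The median log2 fold change was 0.74 in the large and 0.86 in the small subunit and -0.025 over all genes. Of the members with at least 50% unshared stretches 26 of 31 were called, with a median of 1.06, and of the others 22 of 44, with a median of 0.67. Over the alternatives between 40 and 52 members were called, and with library totals in place of TMM 45 were higher and 1 lower. In the same comparison 5 of 12 microglial markers were lower, 2 of 6 tested astrocyte markers were higher and 1 lower (median 0.91), 1 of 4 tested endothelial markers was lower and 11 of 17 mitochondrially encoded genes were higher. The 7 astrocyte markers summed to 228.96 to 298.64 CPM in GF WT and 154.81 to 189.18 CPM in GF 5xFAD mice, most of it *Slc1a3*, and each of the others was at most 16.45 CPM in any library. Their part in the result was not tested.

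*Rpl32*, a large subunit protein, had the largest rise in GF mice. It was at 32.8, 46.4, 49.6 and 49.7 CPM in GF WT mice and at 95.2, 129, 149, 151 and 166 CPM in GF 5xFAD mice. The groups did not overlap, and the log2 fold change was 1.63 ± 0.19 (SE, adjusted p = 2.4e-07). In SPF WT mice *Rpl32* was at 31.6, 44.6, 44.8, 48.2 and 53.0 CPM, and in SPF 5xFAD mice at 79.4, 84.3 and 103.5 CPM. Again the groups lay apart, with a log2 fold change of 1.00 ± 0.19 (adjusted p = 0.0010). In ABX WT mice it was at 39.3, 42.6, 46.6, 50.2 and 54.4 CPM, and in ABX 5xFAD mice it ranged from 58.1 over a median of 89.4 to 112 CPM, also without overlap, with a log2 fold change of 0.89 ± 0.17 (adjusted p = 3.5e-04). It was past the threshold in all 3 housing conditions under each alternative run. Some of its exonic bases overlap *Cand2* and *Snora7a*.

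*Rpl39*, a very small protein of the exit tunnel, had the next largest rise in GF mice. It was at 5.01, 5.83, 5.93 and 9.12 CPM in GF WT and at 15.9, 17.8, 19.0, 19.9 and 26.04 CPM in GF 5xFAD mice (log2 fold change 1.61 ± 0.28, adjusted p = 1.2e-04). The groups did not overlap. In the small subunit the largest rises were those of *Rps21* and *Rps19*. *Rps21* was at 5.28, 6.22, 6.25 and 8.32 CPM in GF WT and at 11.9, 17.3, 18.0, 21.1 and 24.4 CPM in GF 5xFAD mice, a log2 fold change of 1.51 ± 0.26 (adjusted p = 9.3e-05). *Rps19*, which is mutated in Diamond-Blackfan anaemia and is needed to mature the small subunit, was at 12.8, 18.0, 21.5 and 22.5 CPM in GF WT and at 36.3, 47.6, 51.0, 52.4 and 58.9 CPM in GF 5xFAD mice, a log2 fold change of 1.40 ± 0.18 (adjusted p = 8.7e-07). Mouse WT_GF_199 was the lowest GF WT mouse for *Rpl39*, *Rps21* and *Rps19*, and its members held 0.125% of its reads against 0.170% to 0.172% in the other GF WT mice. Without it 40 members were called.

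*Rps6* was called in no comparison. It was at 1.05 to 1.61 CPM in GF WT mice and at 1.30 to 3.35 CPM in GF 5xFAD mice, with a log2 fold change of 0.61 ± 0.37 (adjusted p = 0.30), at few reads and with 15.4% unshared stretches. *Rps4l*, at 32.4 to 42.8 CPM in GF WT and 27.9 to 52.4 CPM in GF 5xFAD mice, had a log2 fold change of -0.046 ± 0.21 (adjusted p = 0.92). *Rps4x* rose by 0.69 ± 0.21 (adjusted p = 0.022) and *Rps27l* by 0.86 ± 0.19 (adjusted p = 0.0014) on the log2 scale.

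**Figure D3:**
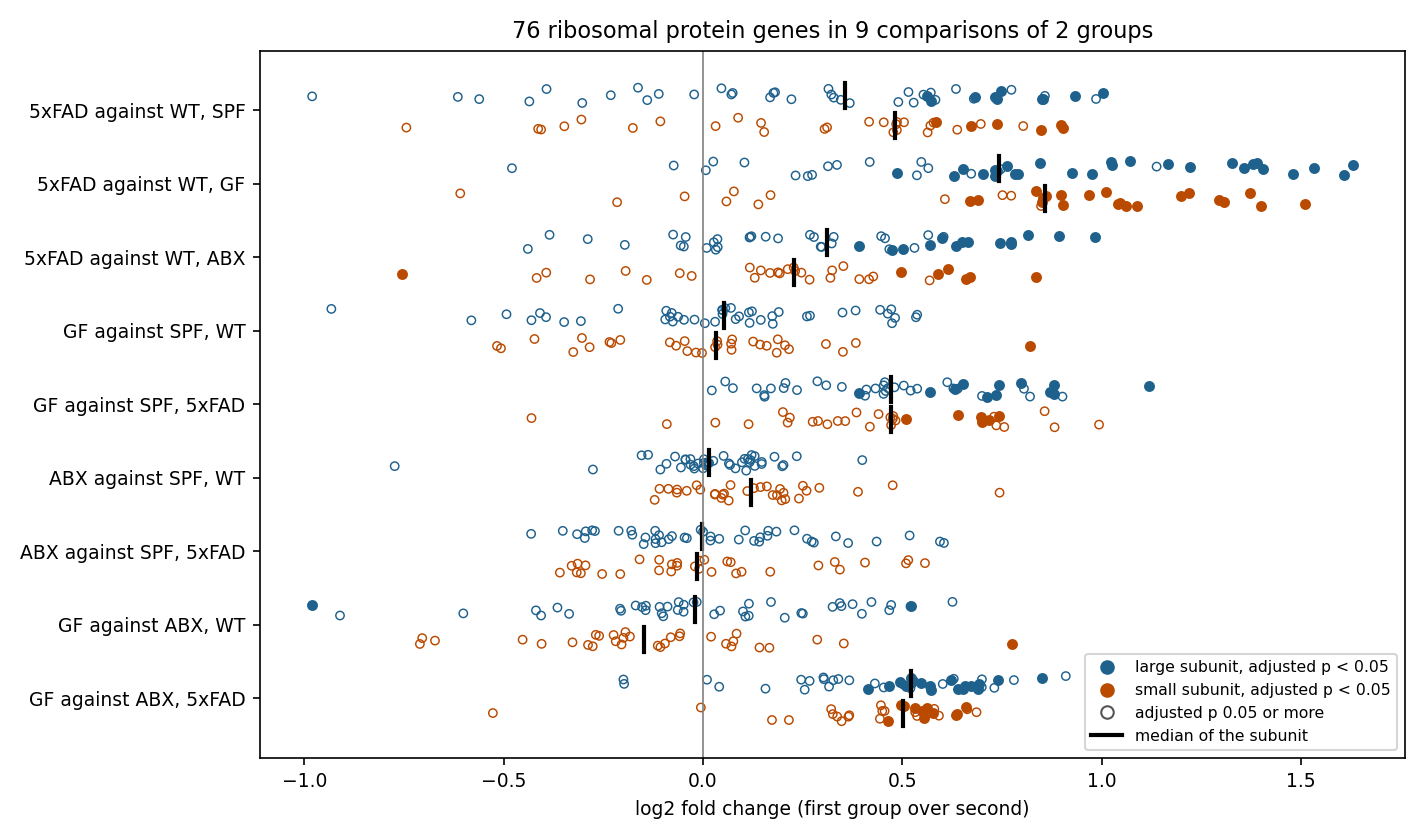
Each point is 1 of the 76 genes in 1 comparison, with the log2 fold change of the first over the second group on the horizontal axis. Blue points are large and orange points small subunit genes, filled where the adjusted p of edgeR is under 0.05, and black bars are the medians of each subunit. Nearly all filled points lie to the right of 0, and the medians are highest for 5xFAD against WT under GF housing, at 0.74 and 0.86.

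In SPF mice the same genotype comparison called 16 members higher (10 large and 6 small, 21.1%) and 0 lower, where 3.73% of all genes were higher and 0.837% lower. The median log2 fold change was 0.36 in the large and 0.48 in the small subunit. Of the members with at least 50% unshared stretches 13 of 31 were called, with a median of 0.64, and of the others 3 of 44, with a median of 0.18. Among the called members of the large subunit the largest rise after *Rpl32* was that of *Rplp1*, from 22.2, 23.2, 24.6, 28.7 and 31.96 CPM in SPF WT to 43.5, 44.8 and 61.6 CPM in SPF 5xFAD mice (0.93 ± 0.21, adjusted p = 0.0046). Among those of the small subunit it was *Rps26*, which contacts the mRNA upstream of the start codon, from 6.10, 8.44, 8.77, 9.54 and 11.0 to 14.8, 16.8 and 17.5 CPM (0.90 ± 0.25, adjusted p = 0.027), followed by *Rps19* (0.90 ± 0.18, adjusted p = 0.0018). Groups did not overlap for *Rplp1* and *Rps26*. The calls depended on single mice. Without FAD_SPF_1144, the highest SPF 5xFAD mouse, 4 members were called, among them *Rpl32*, *Rpl4* and *Rps19*, and without WT_SPF_925, the lowest SPF WT mouse, 7 were called. With voomWithQualityWeights, which weights the libraries, 31 members were higher and 3 were lower. The 3 lower members, named here for their direction after their values were seen, were *Rpl9* (-1.39), *Rpl34* (-0.51) and *Rpl10* (-0.51). In the SPF 5xFAD mice 5 of 8 markers of border-associated macrophages, 1 of 4 tested endothelial markers and 6 of 17 mitochondrially encoded genes (median 0.86) were also higher. Of the microglial markers 4 of 12 were lower. Of 9 neutrophil markers 4 were tested, and these 4 were higher. Their reads lay almost only in the SPF 5xFAD mice and FAD_ABX_1151. They passed the low-count filter through the mice where they are high, so their calls are no independent result. In SPF WT mice the 9 summed to at most 0.177 CPM. The part of these markers and genes in the result was not tested. Neutrophils are among the cells that the sorting gate was meant to remove.

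After ABX, 20 members were higher in 5xFAD than in WT mice (14 large and 6 small, 26.3%) and 1 was lower, where 9.45% of all genes were higher and 4.98% lower. The medians were 0.31 and 0.23. Of the members with at least 50% unshared stretches 14 of 31 were higher, with a median of 0.45, and of the others 6 of 44, with a median of 0.18. The largest rise was that of *Rpl21*, a large subunit protein counted at low depth, from 2.40, 2.50, 3.17, 3.20 and 3.80 CPM in ABX WT mice to between 4.10 and 8.37 CPM with a median of 5.50 in ABX 5xFAD mice, without overlap (0.98 ± 0.27, adjusted p = 0.011). *Rps19* ranged from 16.0 to 19.5 CPM in WT and from 22.6 to 39.1 CPM in 5xFAD mice (0.84 ± 0.16, adjusted p = 3.5e-04), and *Rps15* from 16.2 to 21.3 and from 20.98 to 41.1 CPM (0.67 ± 0.16, adjusted p = 0.0044), with an overlap at the lowest 5xFAD mouse. In the same comparison 8 of 8 markers of border-associated macrophages were higher and 6 of 12 microglial markers lower. Of 4 tested endothelial markers 1 was higher and 1 lower. The 4 tested neutrophil markers were called higher, through 1 mouse. Neutrophil markers summed to 117 CPM in FAD_ABX_1151 and to at most 0.774 CPM in the other ABX 5xFAD mice. The part of these markers in the result was not tested.

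The member that was lower in ABX 5xFAD mice was *Rps13*, a small subunit protein at the interface with the large subunit. It was at 7.58, 8.56, 9.12, 9.61 and 13.4 CPM in ABX WT mice and ranged from 4.51 over a median of 5.25 to 7.44 CPM in ABX 5xFAD mice, without overlap, and fell by 0.75 ± 0.21 on the log2 scale (adjusted p = 0.014). Its SPF WT mice ranged from 4.13 to 7.87 CPM. The ABX 5xFAD mice lay in the range of the SPF WT mice. The ABX WT mice, all but the lowest, lay above that range, but ABX against SPF WT mice gave no call. Its adjusted p ranged from 0.0059 to 0.070 over the alternatives and was past the threshold in 34 of 37 fits.

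The 3 genotype comparisons share no mice. Of the 76 members, 12 were higher in 5xFAD mice in all 3 (15.8%), 10 in 2 (13.2%), 28 in 1 (36.8%) and 26 in 0 of them (34.2%). Of the 15298 genes tested, 2.76% were higher in all 3, 2.76% in 2, 8.81% in 1 and 85.7% in 0. Among the 12 were *Rpl4*, *Rpl14*, *Rpl32*, *Rpl41* and the 3 stalk genes *Rplp0*, *Rplp1* and *Rplp2* in the large and *Rps2*, *Rps14* and *Rps19* in the small subunit. *Rplp0*, the base of the stalk, was at 60.7, 62.8, 63.6, 71.2 and 73.3 CPM in SPF WT and at 85.2, 85.3 and 124 CPM in SPF 5xFAD mice. It was at 65.3, 87.7, 92.1 and 93.2 CPM in GF WT and at 133, 162, 163, 169 and 176 CPM in GF 5xFAD mice. It ranged from 60.5 to 70.0 CPM in ABX WT and from 78.9 to 157 CPM in ABX 5xFAD mice. The 5xFAD mice lay above the WT mice in each condition, with log2 fold changes of 0.56 ± 0.15, 0.92 ± 0.15 and 0.74 ± 0.13 (adjusted p = 0.029, 3.4e-05 and 1.8e-04). *Rplp2* had log2 fold changes of 0.68 ± 0.20, 1.02 ± 0.19 and 0.57 ± 0.17 in SPF, GF and ABX mice.

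*Rpl4*, the member with the most reads, was at 158, 159, 166, 178 and 183 CPM in SPF WT and at 217, 236 and 299.8 CPM in SPF 5xFAD mice. It was at 155, 192, 200.3 and 215 CPM in GF WT and at 293, 303, 349, 349 and 351 CPM in GF 5xFAD mice, and it ranged from 156 to 180.6 CPM in ABX WT and from 205 to 279 CPM in ABX 5xFAD mice. The WT and 5xFAD mice of a condition did not overlap, and the log2 fold changes were 0.57 ± 0.11, 0.79 ± 0.10 and 0.50 ± 0.092 (adjusted p = 7.5e-04, 1.4e-06 and 2.7e-04).

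**Figure D4:**
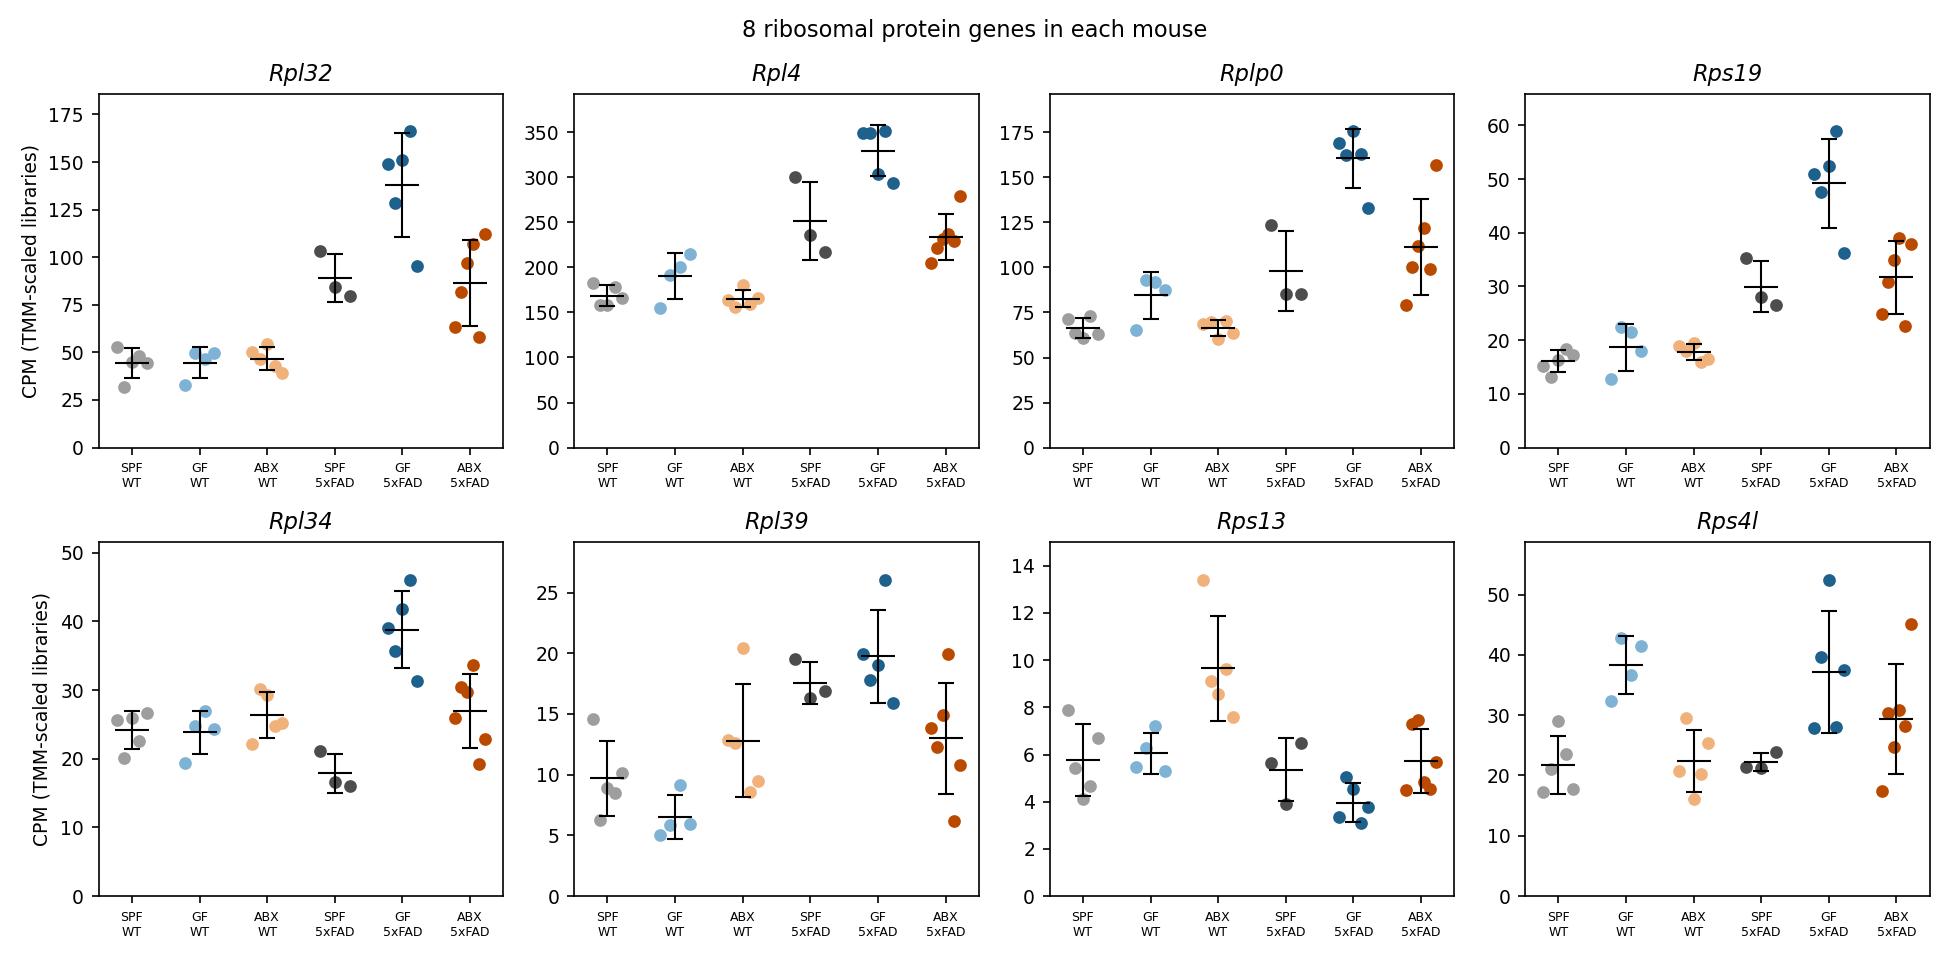
CPM of 8 ribosomal protein genes in each mouse, 1 panel per gene with its own axis from 0, with the mean and SD of each of the 6 groups. *Rpl32*, *Rpl4*, *Rplp0* and *Rps19* are higher in the 5xFAD groups and highest under GF housing. *Rpl34* has its lowest mean in SPF 5xFAD and its highest in GF 5xFAD mice. *Rpl39* is low in GF WT mice, *Rps13* is high in ABX WT mice and *Rps4l* is high in both GF groups.

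Few members were called between housing conditions in WT mice. In GF against SPF WT mice 1 member was higher and 0 were lower, where 0.869% of all genes were higher and 0.752% lower. An unadjusted p under 0.05 was found for 10 members, 5 higher and 5 lower. The medians were 0.053 in the large and 0.033 in the small subunit. The member was *Rps4l*, at 17.2, 17.7, 21.1, 23.6 and 29.0 CPM in SPF WT and at 32.4, 36.7, 41.5 and 42.8 CPM in GF WT mice, without overlap (0.82 ± 0.21, adjusted p = 0.043, past the threshold in 26 of 37 fits). No member was called without any 1 of WT_SPF_912, WT_SPF_925, WT_SPF_928, WT_SPF_936, WT_GF_229, WT_GF_230, WT_GF_231 and the 3 SPF 5xFAD mice, and 2 were called without WT_GF_199, WT_ABX_923, FAD_ABX_1151 or FAD_ABX_1482. In the same comparison 5 of 8 markers of border-associated macrophages were higher. Lower were 2 of 17 mitochondrially encoded genes and 1 of 6 tested astrocyte markers (median -0.99). The part of these markers and genes in the result was not tested.

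In GF against ABX WT mice 2 members were higher and 1 was lower, where 4.48% of all genes were higher and 2.4% lower. *Rps4l*, at 16.1, 20.2, 20.8, 25.4 and 29.6 CPM in ABX WT mice, was higher in GF WT mice by 0.77 ± 0.21 (adjusted p = 0.027). *Rpl6*, a large subunit protein, was at 12.2, 12.2, 13.2, 13.6 and 16.5 CPM in ABX WT and at 14.9, 17.4, 20.6 and 24.8 CPM in GF WT mice (0.52 ± 0.15, adjusted p = 0.031). *Rpl39* was at 8.58, 9.49, 12.6, 12.9 and 20.4 CPM in ABX WT mice and lower in GF WT mice, with a log2 fold change of -0.98 ± 0.28 (adjusted p = 0.032). Of these, *Rpl39* and *Rpl6* each overlapped by 1 mouse or more. Without mouse WT_GF_229, WT_GF_231, WT_ABX_909 or WT_ABX_911 0 members were called, and without WT_ABX_910 1 was. In GF against ABX WT mice 5 of 8 markers of border-associated macrophages were higher, 1 of 12 microglial markers was higher and 3 were lower, and 9 of 17 mitochondrially encoded genes were lower (median -0.94). Their part in the result was not tested.

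In 5xFAD mice, 18 of the 76 members were higher under GF than under SPF housing (12 large and 6 small, 23.7%) and 0 lower, where 6.97% of all genes were higher and 5.86% lower. The median was 0.47 in both subunits and 0.018 over all genes, and 44 of 44 large and 30 of 32 small subunit members had a log2 fold change above 0. *Rpl34*, a large subunit protein, had the largest change of the called members. It was at 16.0, 16.5 and 21.1 CPM in SPF 5xFAD and at 31.4, 35.7, 39.0, 41.9 and 46.0 CPM in GF 5xFAD mice (1.118 ± 0.17, adjusted p = 6.3e-04), without overlap. In SPF WT mice *Rpl34* was at 20.1 to 26.7 CPM, so that the SPF 5xFAD mice held the low values, and its change with genotype was -0.44 ± 0.17 (adjusted p = 0.18) in SPF and 0.70 ± 0.15 (adjusted p = 0.0016) in GF mice.

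*Rpl6* was at 12.7, 13.7 and 15.9 CPM in SPF 5xFAD and at 22.7, 24.7, 25.3, 28.4 and 28.6 CPM in GF 5xFAD mice (0.88 ± 0.16, adjusted p = 0.0017), also without overlap. The largest changes among the called members of the small subunit were those of *Rps4l* (0.74 ± 0.24, adjusted p = 0.038) and *Rps19* (0.72 ± 0.19, adjusted p = 0.013). The SPF 5xFAD group has 3 mice, and the count depended on them. Without FAD_SPF_1146 or without FAD_SPF_1148 2 members were called, *Rpl34* and *Rpl6*. Without FAD_GF_184 11 were called and without FAD_GF_201, whose description says WT, 28 were. DESeq2 called 29 members and voomWithQualityWeights 43, while library totals in place of TMM gave 10 and offsets for gene length 11. In GF against SPF 5xFAD mice the 4 tested neutrophil markers were lower, and their reads lay almost only in the SPF 5xFAD mice and FAD_ABX_1151. Of 12 microglial markers 3 were higher and 3 lower. The part of these markers in the result was not tested.

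Against ABX 5xFAD mice, 29 members were higher in GF 5xFAD mice (18 large and 11 small, 38.2%) and 0 were lower, where 6.07% of all genes were higher and 4.52% lower. This comparison shares the GF 5xFAD mice with the one before. The medians were 0.52 and 0.50. *Rpl27*, a large subunit protein, was at 4.62, 5.08, 5.66, 6.48 and 9.29 CPM in GF 5xFAD mice and ranged from 2.90 over a median of 3.45 to 4.22 CPM in ABX 5xFAD mice (0.85 ± 0.21, adjusted p = 0.011), without overlap. *Rpl38*, which is known for its part in the translation of Hox mRNAs, was at 9.71, 9.85, 10.5, 12.5 and 13.7 CPM in GF 5xFAD mice and ranged from 4.12 over a median of 6.83 to 9.78 CPM in ABX 5xFAD mice (0.74 ± 0.20, adjusted p = 0.016), with 1 mouse in overlap. Among the called members of the small subunit the largest changes were those of *Rps14* (0.66 ± 0.16, adjusted p = 0.0095) and *Rps2* (0.64 ± 0.14, adjusted p = 0.0063). Without FAD_ABX_1151, whose description has another form than those of the other mice of both groups, 17 members were called. Without FAD_GF_181, FAD_GF_184, FAD_GF_185 or FAD_ABX_1460 between 15 and 19 were called, and without FAD_GF_201 41 were. In this comparison 3 of the 4 tested neutrophil markers were lower, through FAD_ABX_1151. Also lower were 1 of 8 markers of border-associated macrophages, 2 of 6 tested astrocyte markers (median -1.05) and 1 of 5 tested neuron markers. Of 12 microglial markers 2 were higher and 4 lower. The part of these markers in the result was not tested.

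ABX against SPF mice gave no call. In WT mice 0 members were called by edgeR, with 2 at an unadjusted p under 0.05 and 0 by DESeq2 and voomWithQualityWeights, where 0.0% of all genes were called. In 5xFAD mice 0 members were called, with 2 at an unadjusted p under 0.05, 0 by DESeq2 and 1 by voomWithQualityWeights (*Rpl34*, higher by 0.72 after ABX), where 0.0% of all genes were called. The medians were 0.014 and 0.12 in WT mice and -0.0028 and -0.015 in 5xFAD mice.

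Whether the genotype difference itself varied between the housing or treatment conditions was tested as an interaction. GF mice came from another facility, and the descriptions of ABX WT and ABX 5xFAD mice lie in different numbered runs. Microbiota, facility and run cannot be told apart in it. Between GF and ABX mice 6 members had a larger genotype difference under GF housing (7.89%) and 0 a smaller one, where 0.843% of all genes were called in the first and 0.915% in the second direction. Among them were *Rpl39* (interaction 1.58 ± 0.37, adjusted p = 0.027), *Rps21* (1.26 ± 0.34, adjusted p = 0.049), *Rps24* (1.24 ± 0.32, adjusted p = 0.045), *Rpl23* (1.06 ± 0.28, adjusted p = 0.045) and *Rpl37a* (1.03 ± 0.27, adjusted p = 0.048). For *Rpl39* the genotype difference was 1.61 ± 0.28 in GF, 0.86 ± 0.29 in SPF and 0.027 ± 0.24 in ABX mice. For *Rps24* it was 1.37 ± 0.25, 0.64 ± 0.25 and 0.13 ± 0.21. Levels in both genotypes entered these differences. *Rps24*, a small subunit protein mutated in Diamond-Blackfan anaemia, was at 6.09, 7.88, 7.995 and 8.95 CPM in GF WT and at 9.52, 10.3, 11.85, 12.96 and 18.6 CPM in ABX WT mice, without overlap. It was at 11.8, 16.5, 19.3, 25.6 and 26.7 CPM in GF 5xFAD mice and ranged from 7.60 over a median of 14.07 to 17.5 CPM in ABX 5xFAD mice, and these groups overlapped. Without WT_GF_199, WT_GF_229, WT_GF_231, WT_ABX_911 or FAD_GF_185 0 members were called. Without WT_SPF_926, WT_SPF_928, WT_SPF_936, WT_ABX_909, WT_ABX_910, FAD_SPF_1146, FAD_SPF_1148, FAD_GF_181, FAD_GF_182, FAD_GF_184, FAD_ABX_1151, FAD_ABX_1452, FAD_ABX_1453 or FAD_ABX_1460 between 1 and 3 were called, without FAD_ABX_1482 11 and without FAD_GF_201 13. With library totals and without the low-count filter 2 were called, with gene length offsets and voomWithQualityWeights 3 and with DESeq2 10. In the same interaction 7 of 8 markers of border-associated macrophages were called lower and 7 of 17 mitochondrially encoded genes higher. Of 12 microglial markers 1 was called higher and 1 lower. The part of these markers and genes in the result was not tested.

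**Figure D5:**
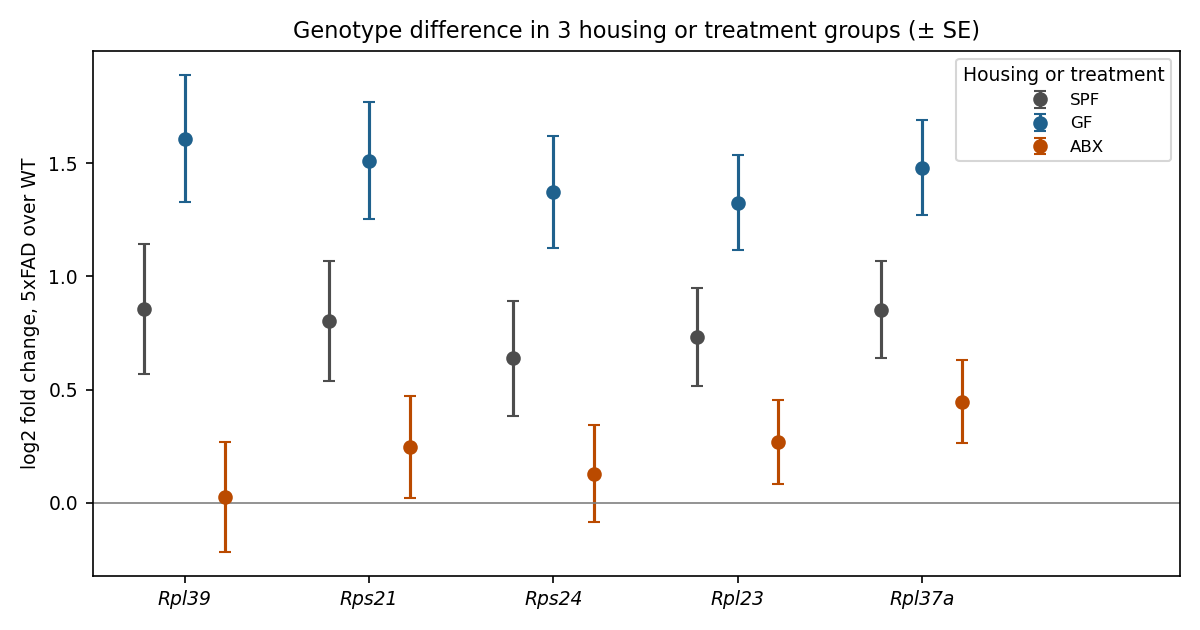
The vertical axis gives the log2 fold change of 5xFAD over WT mice, with its SE as bars, for 5 genes with a called interaction of GF with ABX, in SPF (grey), GF (blue) and ABX (orange) mice. The GF values lie between 1.33 and 1.61, the ABX values between 0.027 and 0.45 and the SPF values between 0.64 and 0.86.

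Between GF and SPF mice the interaction called 0 members by edgeR, with 15 at an unadjusted p under 0.05, all of them larger under GF housing, and 1 each by DESeq2 and voomWithQualityWeights (*Rpl34*, also called by edgeR without FAD_GF_201), where 0.0% of all genes were called by edgeR. Its medians were 0.42 and 0.50 beside 0.011 over all genes, and 42 of 44 large and 30 of 32 small subunit members lay above 0. The share of all genes at an unadjusted p under 0.05, or above 0, is not given here, so these counts have no background. Between ABX and SPF mice it called 0 members, with 3 at an unadjusted p under 0.05 and 0 by DESeq2 and voomWithQualityWeights, where 0.0% of all genes were called. The larger count of calls in GF than in SPF mice is therefore not shown to be a difference between these conditions.

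The same genotype difference can be set beside the promoter features. Under GF housing 15 of the 25 members with the pyrimidine tract shown above and 19 of the 31 without it at the annotated start were higher in 5xFAD mice, with medians of 0.78 and 0.79. Of the members with CCGGAAG, 17 of 24 were higher, with a median of 0.94, and of those without it 17 of 32, with a median of 0.76. No test of these counts was made.

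Of 8 tested components and paralogues of the cytosolic ribosome that the name form leaves out, 3 were higher and 0 lower in GF 5xFAD against GF WT mice, where 9.43% of all genes were higher. Among them *Rps3a1*, a small subunit protein, rose by 0.99 ± 0.16 (adjusted p = 6.1e-05) and *Rack1*, the scaffold on the small subunit, by 0.83 ± 0.15 (adjusted p = 1.4e-04). *Fau*, which yields a small subunit protein, had a log2 fold change of 0.64 ± 0.29 (adjusted p = 0.14).

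Of 23 translation factors and other genes of the TOP mRNA class, 16 were higher and 0 lower in GF 5xFAD against GF WT mice (median 0.56), 4 and 0 in SPF mice and 5 and 0 in ABX mice, where 9.43%, 3.73% and 9.45% of all genes were higher. *Eef1a1*, which brings aminoacyl-tRNA to the ribosome, rose by 1.16 ± 0.13 in GF (adjusted p = 1.9e-07) and by 0.91 ± 0.14 in SPF mice (adjusted p = 4.6e-05). *Vim*, the intermediate filament gene vimentin, rose by 1.65 ± 0.32 in GF and by 2.31 ± 0.31 in ABX mice. In GF against SPF 5xFAD mice 6 of 23 were higher and 0 lower, where 6.97% of all genes were higher, with *Tpt1*, a growth-related TOP mRNA, at 1.04 ± 0.24 (adjusted p = 0.0056).

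In GF 5xFAD against GF WT mice the other parts of the translation machinery had medians nearer to 0 than the members, and 9.43% of all genes were higher and 6.2% lower. Of 28 other initiation factors, 1 was higher and 0 lower there, with a median of 0.088, and the 1 was *Eif5a* (0.64 ± 0.13). Of 46 ribosome biogenesis genes, 7 were higher and 0 lower, with a median of 0.15. *Nop10* (0.92 ± 0.17) and *Nhp2* (0.72 ± 0.19), both of the box H/ACA particles that modify rRNA, had the largest changes among the 7. After ABX 11 of these 46 were higher in 5xFAD than in WT mice and 0 lower, with a median of 0.21 beside 0.31 and 0.23 for the large and small subunit members, and in GF against ABX WT mice 6 were higher and 1 lower, with a median of 0.14 beside -0.020 and -0.15. Of all genes 9.45% and 4.48% were higher in these comparisons. Of 76 mitochondrial ribosomal protein genes, 9 were higher in GF 5xFAD than in GF WT mice and 0 lower, a share near the 9.43% of all genes, with a median of 0.18. In GF against SPF 5xFAD mice, 28 of these 76 were higher and 0 lower, where 6.97% of all genes were higher, with a median of 0.43, beside 0.47 for both cytosolic subunits, and *Mrpl12* rose by 1.00 ± 0.18 (adjusted p = 0.0015). There 13 of the 46 ribosome biogenesis genes were higher and 0 lower, with a median of 0.29. Of the 28 other initiation factors 6 were higher and 1 lower, with a median of 0.25, where 5.86% of all genes were lower.

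Of 17 genes from mTORC1 to Rps6, 5 were higher and 1 lower in GF 5xFAD against GF WT mice, where 9.43% of all genes were higher and 6.2% lower, with a median of 0.052. *Myc*, a transcription factor that drives ribosome synthesis, rose by 1.23 ± 0.18 (adjusted p = 7.9e-06) and *Lamtor1*, an anchor of mTORC1 at the lysosome, by 0.71 ± 0.12 (adjusted p = 1.0e-04), and *Rptor*, the scaffold of mTORC1, fell by 0.38 ± 0.12 (adjusted p = 0.027). In GF against SPF 5xFAD mice *Eif4ebp1*, the repressor of cap-dependent translation that mTORC1 inactivates, rose by 0.98 ± 0.19 (adjusted p = 0.0027). Immediate early genes, which rise within minutes in handled cells, were higher for 5 of 15 in GF 5xFAD against GF WT mice and lower for 0, with a median of 0.43, and higher for 7 and lower for 0 in GF against SPF 5xFAD mice, with a median of 0.66, where 9.43% and 6.97% of all genes were higher. The part of cell handling in the members' changes was not tested.

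Other measures moved with the members. The mean log2 gene length of the reads, 11.87 to 11.98 in GF WT mice, was 11.76 to 11.83 in GF 5xFAD mice, and the 1507 other genes of at most 1093 bases had a median log2 fold change of 0.088 between them, with 11.9% called higher. With offsets for gene length 49 members were higher in this comparison and 0 lower. The 21 tested ribosomal protein pseudogenes had a median of 0.66 there, with 3 called higher and 0 lower, and which of their reads came from the members was not tested. Mitochondrially encoded genes were higher in GF 5xFAD than in GF WT mice for 11 of 17 (median 1.00), and for 0 of 17 in ABX 5xFAD against ABX WT mice (median -0.16). In GF against SPF 5xFAD mice, where the members' medians were 0.47, 2 of the 17 had a log2 fold change above 0 (median -0.39) and 0 were called. Their median interaction of GF with ABX was 1.17. In FAD_ABX_1460, the 5xFAD library lowest in members (0.147% of its reads), they held 0.103% of the reads, the lowest share of all libraries. Their part in the result was not tested.

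The sort was rich in microglia. The 12 microglial markers, among them *P2ry12* and *Tmem119*, summed to 68222 to 76794 CPM in WT and 52789 to 65524 CPM in 5xFAD mice. In GF 5xFAD against GF WT mice 0 of 12 markers were higher and 5 were lower. Neutrophil markers summed to 56.5 to 221 CPM in the SPF 5xFAD mice and at most 117 CPM in ABX 5xFAD mice, where FAD_ABX_1151 held that value, and to at most 0.0495 CPM in GF 5xFAD and 0.0907 CPM in GF WT mice. Markers of border-associated macrophages summed to 10.0 to 83.1 CPM in GF 5xFAD, 10.7 to 44.1 CPM in GF WT and 34.7 to 256.2 CPM in ABX 5xFAD mice, and to 3.80 to 5.97 CPM in ABX WT mice, with 8 of 8 higher in ABX 5xFAD against ABX WT mice. Their part in the members' levels was not tested. The descriptions of the libraries are a running number with the mouse number, in 1 run for the SPF WT and ABX WT mice and in another for the SPF 5xFAD mice and FAD_ABX_1151, or with the group, for all GF and the other 5 ABX 5xFAD mice. What these runs stand for is not given. GF 5xFAD against GF WT, ABX WT against SPF WT and, without FAD_ABX_1151, GF 5xFAD against ABX 5xFAD mice lie within 1 run, and in the other comparisons run and group cannot be told apart or share only FAD_ABX_1151.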

How the data were processed

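The authors sequenced sorted microglia with 50-base single reads, aligned them with STAR 2.7.2 to GRCm38 and counted genes of GENCODE M21 with featureCounts 1.6.2. The deposited values are unnormalized counts, 1 column a mouse. How reads that match several places were counted, and whether strand was used, is not given in the sources used here. Groups came from the labels, and each library is 1 mouse. Library totals were 14441610 to 29977395 reads, and over 54 pairs of mice of 1 group the chi-square per degree of freedom was 6.92 or more, beyond counting noise.

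The test was the quasi-likelihood test of edgeR 4.0.16 in R 4.3.3, with filterByExpr (minimum count 10, minimum total 15), TMM and 1 term per group over all 28 mice. P-values were adjusted by Benjamini and Hochberg over 15298 genes, and called means an adjusted p under 0.05. Counts of members at an unadjusted p, or above 0, are given without the share of all genes. CPM by mouse used TMM-scaled totals and log2 CPM a prior count of 2. Levels in the member rule, per kilobase and of markers used library totals. SE is the log2 fold change over the root of F. The code of the fit was also run on simulated counts, and the outcome is not given here. Alternatives were RLE factors, library totals, TMM factors without the members, no low-count filter, gene length offsets, DESeq2 1.42.0, voomWithQualityWeights of limma 3.58.1 (the study's method), 26 mice without FAD_ABX_1151 and FAD_ABX_1482, and leaving out each mouse.

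The members and lists were chosen with earlier results of these data known. Members named are, per subunit, the 2 largest rises and falls past the threshold in each comparison of 2 groups, the 3 smallest p of the F test, the 3 highest and lowest levels per kilobase, paralogues and stalk genes, Rps6, and those called in an interaction. Genes of other lists are the 2 largest called changes. Rack1 in GF mice, Fau and the members in lists of calls of 12 or fewer were named after their values were seen. Some genes that meet these rules are not reported here.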

Additional observations from a re-analysis of the deposited data

Results flagged for a closer look

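Of the sets of values of 1 group that were tested, 17 (9.19%) held a mouse that stood apart from the others by Dixon's criterion at 95%, of which chance gives about 1 in 20. The sets share mice and are not independent.

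WT_GF_199 was low among the 4 GF WT mice. The members held 0.125% of its reads against 0.170% to 0.172% in the others. Its log2 CPM was 5.04 for *Rpl32* (others 5.54 to 5.64), 4.41 for *Rplp1* (4.85 to 4.91), 5.35 for *Rps14* (5.79 to 5.87), 4.13 for *Rps2* (4.69 to 4.797), 6.03 for *Rplp0* (6.46 to 6.54) and 5.98 for *Rpl8* (6.56 to 6.67). FAD_GF_201, the mouse described as WT and labelled 5xFAD, was low among the 5 GF 5xFAD mice, with a log2 CPM of 5.01 for *Rps15* (5.49 to 5.63), 5.20 for *Rps2* (5.53 to 5.63), 7.05 for *Rplp0* (7.34 to 7.46), 7.30 for *Rps9* (7.71 to 7.83) and 4.57 for *Rplp2* (5.37 to 5.59).

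FAD_ABX_1460 was low among the ABX 5xFAD mice for *Rps26* at 2.62 (3.65 to 4.22) and *Rps24* at 2.94 (3.70 to 4.14). WT_SPF_928 was low among the SPF WT mice for *Rpl21* at 1.116 log2 CPM (1.95 to 2.21). Among the ABX WT mice WT_ABX_932 was low for *Rps14* at 5.57 (5.82 to 5.86) and WT_ABX_909 for *Rps6* at -0.25 (0.70 to 1.04). No cause was tested.

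The genotype difference was larger in GF than in ABX mice, by the interaction term of edgeR, for *Rpl39* by 1.58, *Rps21* by 1.26, *Rps24* by 1.24, *Rpl23* by 1.06 and *Rpl37a* by 1.03 on the log2 scale. Over 37 fits the interaction was past the threshold in 32 for *Rpl39*, 15 for *Rps24*, 14 for *Rpl23* and 9 each for *Rps21* and *Rpl37a*.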

How the results depend on the processing

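No paired analysis was possible because no mouse number occurs in 2 groups. Counts of called members that moved by over 1.5 times are given here, and the cause was not tested. The counts under the alternatives, here and above, are given without the share of all genes that each called. With voomWithQualityWeights 34 members were called for 5xFAD against WT in SPF mice, where edgeR called 16. For GF against SPF 5xFAD mice, where 18 were called, library totals gave 10, gene length offsets 11, DESeq2 29 and voomWithQualityWeights 43. For GF against SPF WT mice, where 1 was called, library totals gave 0, gene length offsets, DESeq2 and the fit of 26 mice 2 each and voomWithQualityWeights 4. DESeq2 called 7 in GF against ABX WT mice in place of 3, and library totals 19 in GF against ABX 5xFAD mice in place of 29. In ABX against SPF 5xFAD mice voomWithQualityWeights called 1 in place of 0. The interaction of GF with SPF gave 1 with DESeq2 and 1 with voomWithQualityWeights in place of 0. The interaction of GF with ABX gave 2 with library totals and without the low-count filter, 3 with gene length offsets and voomWithQualityWeights and 10 with DESeq2, in place of 6.

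Leaving out each mouse, calls ranged from 4 to 21 for 5xFAD against WT in SPF, 40 to 52 in GF and 18 to 25 in ABX mice, from 0 to 2 for GF against SPF WT, 2 to 28 for GF against SPF 5xFAD, 0 to 4 for GF against ABX WT and 15 to 41 for GF against ABX 5xFAD mice, from 0 to 1 for the interaction of GF with SPF, 0 to 13 for GF with ABX and 48 to 53 for the F test. The fold change of *Rps6* for 5xFAD against WT in ABX mice turned positive with voomWithQualityWeights (0.098) and with 26 mice (0.070) and, leaving out each mouse, ranged from -0.23 to 0.059. For ABX against SPF WT mice it ranged from -0.18 to 0.14. None of these passed the threshold. Of 1439 values of named members under the alternatives, 1268 kept direction and side of the threshold, 163 lost the threshold and these 8 turned. The mean log2 CPM of the large subunit in ABX WT mice was 3.41 with library totals.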
